A study of Mus musculus with 6 samples.

Results

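Ephrins and Eph receptors were examined in sorted mouse bone marrow cells. The genes described are 9 of the 25955 entries of the expression table, found by gene symbol: the ephrin ligand genes Efna1, Efna2, Efna4, Efnb1 and Efnb2, and the receptor genes Epha2, Ephb2, Ephb4 and Ephb6. None of the 9 symbols was repeated. The other 13 ephrins and Eph receptors of the table are given for comparison, 22 genes in all. RNA had been sequenced from 6 libraries of cells sorted from enzyme-digested marrow of the C57BL/6 strain, with 3 libraries from the CD44+CD51- gate and 3 from the CD51+ gate, each set carrying replicate numbers 1 to 3. CD44 is a receptor for hyaluronan, and CD51 is integrin αV. The labels call both populations TNCs without spelling the term out, name no treatment or genotype, and do not say whether replicates came from separate animals, so p-values measure only the spread between these libraries.

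Eph receptors are the largest family of receptor tyrosine kinases in mammals, and ephrins are their ligands on the membranes of neighbouring cells. Ephrin-A proteins are held by a lipid anchor and mainly bind EphA receptors, whereas ephrin-B proteins span the membrane, mainly bind EphB receptors and pass signals into their own cell as well. In bone, ephrin-B2 of osteoclasts and EphB4 of osteoblasts are known to signal to each other, and in artery and vein endothelium the same pair marks the vessel types. Loss of ephrin-B1 disturbs the skeleton in mice and humans.

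Values are RPKM, read numbers corrected for gene length (per kilobase) and for library size, so that levels of different genes can be compared. Library size was not given and was estimated from the steps between low values at between 12197691 and 32516823 reads. Fold changes are CD51+ relative to CD44+CD51-. A log2 change is a difference of log2(RPKM + 1), tested by limma with adjustment over the 11741 genes that reached 1 RPKM in at least 3 libraries, at an adjusted p of 0.05. The scale understates changes of low genes, so the means in RPKM or their ratio are given beside it.

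The sorting genes and cell markers were read first. Itgav, which encodes CD51, was at 0.564, 0.957 and 0.510 RPKM in CD44+CD51- libraries and at 5.37, 9.81 and 5.86 RPKM in CD51+ libraries. Cd44 was at 32.0 to 37.0 RPKM and at 29.3 to 34.9 RPKM. Of the other sorting genes, Ptprc rose from a mean of 3.25 to 6.87 RPKM (adjusted p = 0.0122), and Pecam1 was not called. All 6 stromal markers (Lepr, Cxcl12, Pdgfra, Pdgfrb, Kitl, Adipoq) were higher in CD51+ cells, with summed levels of 0.813 to 9.56 RPKM against 1713 to 2830 RPKM. Osteolineage markers summed to 28.9 to 155 RPKM and to 28351 to 37399 RPKM. Mural markers, which mark the muscle-like cells around vessels, summed to 1.61 to 5.03 RPKM and to 19.98 to 48.4 RPKM. All 6 mural markers tested were higher in CD51+ cells. The filter on low values bears on these calls. Lepr, Pdgfra, Pdgfrb, Kitl, Acta2, Tagln, Cspg4 and Notch3 were under 1 RPKM in every CD44+CD51- library. They passed it through the CD51+ libraries alone, and of 1197 genes with that pattern 99.5% were higher. Over all genes tested, 24.1% were higher. Markers of other cells moved as well. Summed B lineage markers went from 251 to 747 RPKM down to 63.3 to 118 RPKM, macrophage markers from 6.48 to 42.0 up to 119.8 to 185 RPKM, and neutrophil lineage markers from 5698 to 28219 up to 84166 to 86932 RPKM. Of 11 erythroid markers, 7 were lower in CD51+ cells, Klf1, Gata1 and Car1 among them, and 3 were higher. No megakaryocyte marker was called, but their sum was highest in replicate 3 of both groups, at 978 RPKM against 229 and 247 RPKM in CD44+CD51- cells and at 2316 RPKM against 143 and 118 RPKM in CD51+ cells. The part of these cell types in the results below was not tested. Within CD44+CD51- cells, replicate 2 was the highest library for all 6 stromal, 9 of 11 osteolineage, all 9 B lineage, all 6 macrophage, 7 of 8 T and NK, 11 of 14 endothelial and all 7 neutrophil lineage markers. The same held for 7 of 8 mural, 6 of 11 erythroid, 4 of 7 osteoclast and 3 of 5 Schwann and neural markers. It held for 0 of 6 megakaryocyte markers and for 4 of the 9 ephrin and Eph genes.

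The RefSeq windows around the start sites of 4 of the genes (250 bases before to 50 after, build GRCm38.p6, 5′ to 3′ on the gene's strand) are shown because 3 of them had the highest mean RPKM in CD51+ cells and the largest differences on the log2(RPKM + 1) scale, and the last, Ephb6, had groups that overlapped. Capitals mark a GC box (GGGCGG or CCGCCC) or a CCAAT box (CCAAT or ATTGG).
Efnb1 (chrX:99135811-99136110, plus strand): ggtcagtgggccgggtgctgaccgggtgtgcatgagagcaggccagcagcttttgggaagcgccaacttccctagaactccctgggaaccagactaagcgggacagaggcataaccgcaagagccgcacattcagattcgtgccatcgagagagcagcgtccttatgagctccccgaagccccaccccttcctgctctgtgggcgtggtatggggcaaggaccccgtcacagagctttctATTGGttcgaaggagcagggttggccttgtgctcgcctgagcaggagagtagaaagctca
Efna1 (chr3:89280902-89281201, minus strand): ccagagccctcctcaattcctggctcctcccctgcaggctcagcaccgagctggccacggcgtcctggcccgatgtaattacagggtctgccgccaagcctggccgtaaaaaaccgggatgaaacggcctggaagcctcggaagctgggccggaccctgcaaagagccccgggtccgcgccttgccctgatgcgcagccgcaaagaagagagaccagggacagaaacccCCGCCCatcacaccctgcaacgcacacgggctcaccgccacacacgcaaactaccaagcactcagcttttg
Ephb4 (chr5:137349859-137350158, plus strand): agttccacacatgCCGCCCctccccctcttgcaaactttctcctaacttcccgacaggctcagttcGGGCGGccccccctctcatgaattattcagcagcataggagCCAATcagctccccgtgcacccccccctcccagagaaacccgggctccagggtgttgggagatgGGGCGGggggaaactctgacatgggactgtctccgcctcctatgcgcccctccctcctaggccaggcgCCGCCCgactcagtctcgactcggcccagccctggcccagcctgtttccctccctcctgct
Ephb6 (chr6:41605261-41605560, plus strand): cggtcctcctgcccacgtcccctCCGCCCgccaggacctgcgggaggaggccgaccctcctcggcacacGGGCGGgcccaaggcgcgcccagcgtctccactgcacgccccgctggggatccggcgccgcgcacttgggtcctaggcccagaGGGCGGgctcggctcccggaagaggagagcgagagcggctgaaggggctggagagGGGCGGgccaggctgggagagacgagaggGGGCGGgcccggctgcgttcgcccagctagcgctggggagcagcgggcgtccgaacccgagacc

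All 9 genes had such a window and Efna1 had 2, which made 10 windows with a GC content of 54.7% to 76.3%, all above the median of 52.7% over 32851 mouse windows. A GC box lay in 7 of the 10, against 35.7% of all windows, and a CCAAT box in 5 of the 10, against 37.4%. The Efnb1 window held a CCAAT box and no GC box, the Ephb4 window 4 GC boxes and 1 CCAAT box, and the Ephb6 window 5 GC boxes. Other motifs were searched on both strands in the same way. The TATA box (TATAAA) was in 1 window, that of Efnb2, against 13.6% of all windows. The core bound by RUNX factors (TGTGGT) and a GATA site (AGATAA) were each in 1 window, that of Efna4, against 16.8% and 11.2%. The E-box (CANNTG) was in 4 windows, against 72.3%. These matches describe the letters only.

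Of the 9 genes, 7 passed the filter on low values, 6 were higher in CD51+ cells, none was lower, and Ephb6 did not pass the test. Over all genes tested, 53.7% passed in either direction, 24.1% higher and 29.7% lower in CD51+ cells. The groups did not overlap in 6 of the 7 tested genes, each higher in CD51+ cells, against 63.6% of all genes tested in either direction and 26.1% with CD51+ cells higher. The filter bears on that count. Efna1, Efna2, Efna4, Epha2 and Ephb4 were under 1 RPKM in every CD44+CD51- library and passed through the CD51+ libraries alone, and of 1197 genes with that pattern 99.5% were higher. Only Efnb1 and Ephb6 reached 1 RPKM in any CD44+CD51- library. In bulk RNA, fewer cells of a type and less RNA per cell cannot be told apart, here and in all values below.

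**Figure D1:**
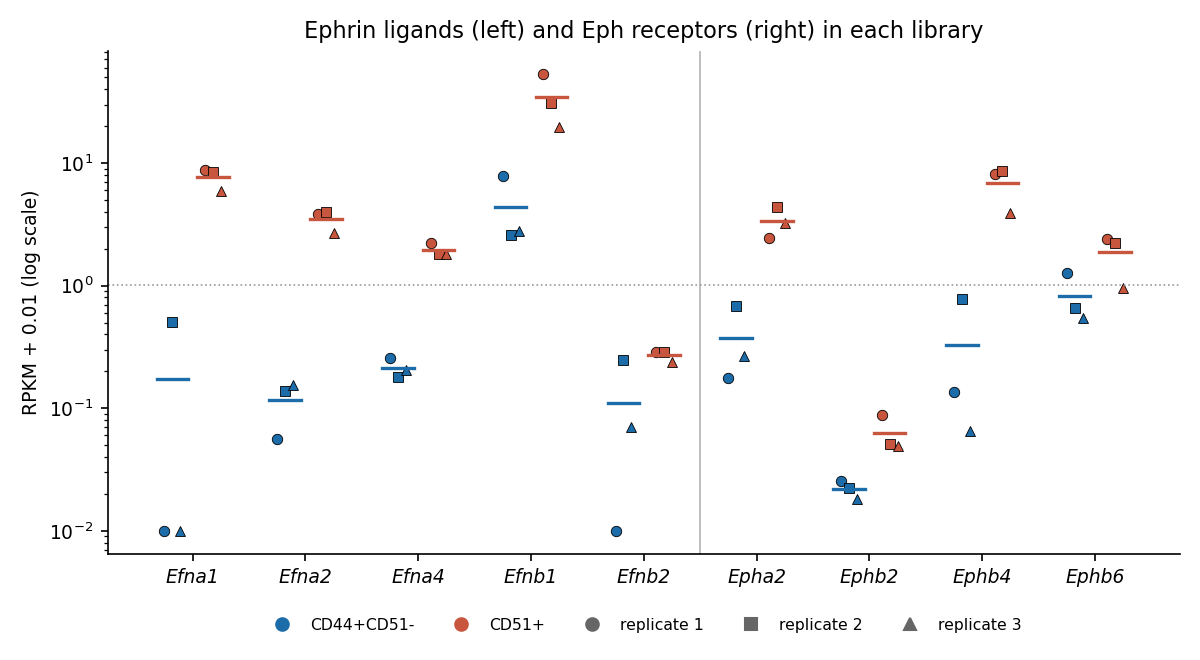
RPKM plus 0.01 (log scale) of the 5 ephrin genes and 4 Eph receptor genes in each library, with replicates by symbol, group means as bars and 1 RPKM as the dotted line. Groups are apart for every gene but Efnb2 and Ephb6, and Efnb1 is the highest gene in both groups.

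Among the ephrin-B ligands, Efnb1 (chromosome X, 99136130 to 99148991, plus strand), which encodes ephrin-B1, was at 7.79, 2.56 and 2.80 RPKM in CD44+CD51- replicates 1 to 3 and at 53.6, 31.1 and 19.6 RPKM in CD51+ replicates 1 to 3. Replicate 1 was the highest library of both groups, and the lowest CD51+ library lay above the highest CD44+CD51- library. The mean rose from 4.38 ± 2.95 to 34.8 ± 17.3 RPKM (SD, n = 3), a ratio of 7.94 and a log2 change of 2.75 ± 0.46 (SE, adjusted p = 0.00265). Between libraries of the same number the ratio was 6.88, 12.2 and 7.01. Of the endothelial markers, Egfl7 (56.1, 18.7 and 17.9 RPKM) and Eng (52.6, 31.7 and 31.0 RPKM), chosen after their values were seen, were likewise highest in CD44+CD51- replicate 1, but both were lower in CD51+ cells. They are 2 of 14 endothelial markers, of which 11 were highest in CD44+CD51- replicate 2, and of 7 tested 1 was higher (Ramp2), 2 were lower and 4 were not called. The part of endothelial cells in the Efnb1 value was not tested.

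Efnb2 (chromosome 8, 8617434 to 8661242, minus strand), which encodes the ligand of EphB4, was listed at 0 in CD44+CD51- replicate 1 and was at 0.239 and 0.0604 RPKM in replicates 2 and 3. It was at 0.275, 0.278 and 0.228 RPKM in CD51+ libraries, so that CD44+CD51- replicate 2 overlapped the CD51+ range. These values came from 0, 42 and 8 reads and from 23, 62 and 38 reads, and the gene did not pass the filter. Without the filter its log2 change was 0.20 (adjusted p = 0.113). Without CD44+CD51- replicate 2 it was 0.29 (adjusted p = 0.0134), and the mean of that group fell from 0.0999 to 0.0302 RPKM. The endothelial markers Cdh5, Cldn5 and Flt4, chosen after their values were seen, were at 0 in CD44+CD51- replicates 1 and 3 and at 0.588, 1.38 and 0.356 RPKM in replicate 2. The whole endothelial list summed to 143, 98.1 and 74.6 RPKM in CD44+CD51- replicates 1 to 3. In CD51+ replicates 1 to 3 it summed to 62.2, 69.0 and 44.9 RPKM. The sum rests mostly on Egfl7, Eng and Plvap, at 56.1, 52.6 and 31.4 RPKM in CD44+CD51- replicate 1. Of the 14 markers, 11 were highest in CD44+CD51- replicate 2, so the sum does not follow most of the list. The part of endothelial cells in the Efnb2 values was not tested.

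Efna1, Efna2 and Efna4, which encode ephrin-A ligands, were all higher in CD51+ cells. Efna1 (chromosome 3, 89271733 to 89281142, minus strand), the founding ephrin and a ligand of EphA2, was listed at 0 in CD44+CD51- replicates 1 and 3 and was at 0.491 RPKM, or 23 reads, in replicate 2. In CD51+ libraries it was at 8.69, 8.45 and 5.94 RPKM, far from the other group. The log2 change was 2.91 ± 0.22 (SE, adjusted p = 8.3e-05) on means of 0.164 ± 0.284 and 7.70 ± 1.52 RPKM, a ratio of 47.0, and the ratio between the libraries numbered 2 was 17.2. Without CD44+CD51- replicate 2 that group was at 0, and with a floor of 3 reads in each library Efna1 was at least 93.3-fold higher.

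Efna2 (chromosome 10, 80179482 to 80190010, plus strand), another lipid-anchored ligand, was at 0.0459, 0.128 and 0.146 RPKM in CD44+CD51- libraries and at 3.85, 3.98 and 2.69 RPKM in CD51+ libraries. The groups stood apart, with 2 to 7 reads in each CD44+CD51- library and 100 to 276 reads in each CD51+ library. The mean rose from 0.107 ± 0.0533 to 3.51 ± 0.712 RPKM, a ratio of 32.9 and a log2 change of 2.01 ± 0.16 (SE, adjusted p = 9.4e-05).

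Efna4 (chromosome 3, 89333390 to 89338028, minus strand) had the smallest standard error of the 7 genes tested. It was at 0.245, 0.171 and 0.194 RPKM in CD44+CD51- libraries and at 2.20, 1.79 and 1.80 RPKM in CD51+ libraries. Ratios between libraries of the same number were 9.01, 10.5 and 9.29. The mean rose from 0.203 ± 0.0377 to 1.93 ± 0.236 RPKM, a ratio of 9.51 and a log2 change of 1.28 ± 0.12 (SE, adjusted p = 0.000243), but under quantile normalization the change was 0.45 and the call was lost (adjusted p = 0.0633, with alternatives from 0.000183 to 0.0633). Of its 1599 annotated exon bases, 168 overlap the antisense gene 4731419I09Rik, whose reads cannot be told apart where strand is not kept. Efna1 and Efna4 lie near each other on the same strand of chromosome 3 with Efna3 (89313899 to 89322965) between them. Efna3 had no reads in CD44+CD51- cells and was at 0.0337, 0.215 and 0.0508 RPKM in CD51+ libraries, below both neighbours in each of the latter.

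**Figure D2:**
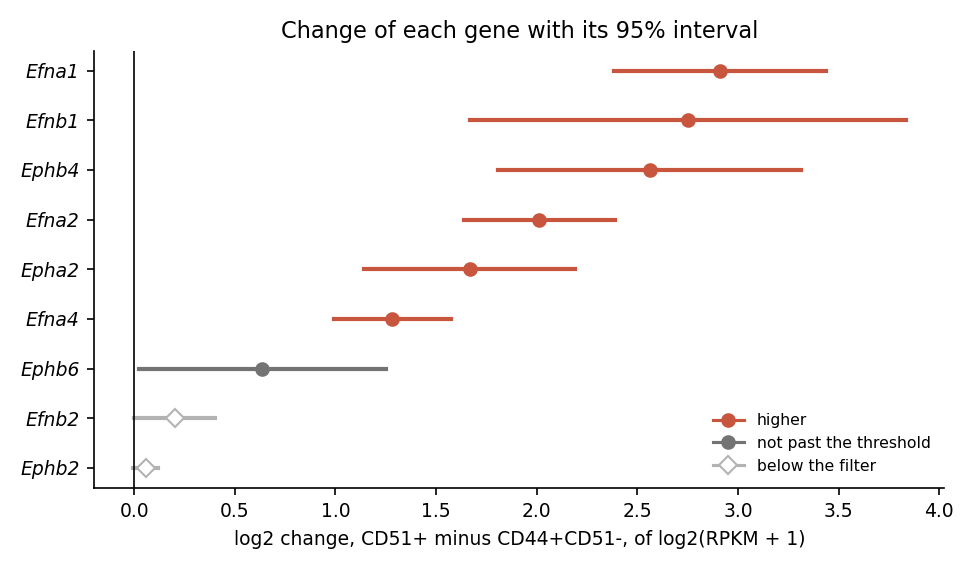
Log2 change of log2(RPKM + 1) of each gene, CD51+ minus CD44+CD51-, with its 95% interval from limma; open diamonds are the 2 genes below the filter, from the fit without it. The 6 genes that were higher lie between 1.28 and 2.91, and Ephb6 lies at 0.64.

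Of the receptors, Ephb4 (chromosome 5, 137350109 to 137378669, plus strand), the receptor of ephrin-B2 on osteoblasts and veins, was at 0.126, 0.766 and 0.0557 RPKM in CD44+CD51- libraries and at 8.13, 8.63 and 3.92 RPKM in CD51+ libraries. The groups did not overlap. CD44+CD51- replicate 2 held 91 reads against 12 and 5 in replicates 1 and 3. The mean rose from 0.316 ± 0.392 to 6.89 ± 2.58 RPKM, a ratio of 21.8 and a log2 change of 2.56 ± 0.32 (SE, adjusted p = 0.000789). Without CD44+CD51- replicate 2 the mean of that group was 0.0911 RPKM and the ratio 75.7, with a log2 change of 2.79. An overlap of 33 exon bases with the antisense gene Zan, at no more than 0.0276 RPKM in any library, is the only one annotated for Ephb4.

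Epha2 (chromosome 4, 141301240 to 141329384, plus strand), the receptor of ephrin-A1, was at 0.167, 0.677 and 0.254 RPKM in CD44+CD51- libraries and at 2.42, 4.41 and 3.25 RPKM in CD51+ libraries. Replicate 2 was the highest of both groups, which stayed apart. The mean rose from 0.366 ± 0.273 to 3.36 ± 0.998 RPKM, a ratio of 9.17 and a log2 change of 1.67 ± 0.22 (SE, adjusted p = 0.00104). Without CD44+CD51- replicate 2 the ratio was 15.9. Leaving out that library did not widen the difference of every gene tested. The ratio rose from 32.9 to 36.6 for Efna2. It fell from 7.94 to 6.57 for Efnb1, from 9.51 to 8.81 for Efna4 and from 2.29 to 2.07 for Ephb6.

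Ephb6 (chromosome 6, 41605482 to 41620509, plus strand) encodes a receptor without kinase activity, best known in T cells. It was at 1.26, 0.642 and 0.535 RPKM in CD44+CD51- libraries and at 2.39, 2.23 and 0.95 RPKM in CD51+ libraries. CD44+CD51- replicate 1 exceeded CD51+ replicate 3, so the groups overlapped, although each CD51+ library was above the CD44+CD51- library of the same number, by ratios of 1.90, 3.48 and 1.78. The means were 0.811 ± 0.390 and 1.86 ± 0.790 RPKM, a ratio of 2.29. The log2 change of 0.64 ± 0.26 (SE) did not pass the test (adjusted p = 0.0750) and passed with the replicate block (adjusted p = 0.0117). Leaving out CD44+CD51- replicate 1 also gave a pass (adjusted p = 0.0491), as did leaving out replicate 3 of CD51+ cells (0.0179). It was -0.04 under quantile normalization (0.927), the whole range of its alternatives being 0.0117 to 0.927. The T and NK markers summed to 1.85, 7.60 and 2.85 RPKM in CD44+CD51- replicates 1 to 3 and to 5.31, 8.04 and 10.4 RPKM in CD51+ replicates 1 to 3, and their part in the Ephb6 values was not tested.

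Ephb2 (chromosome 4, 136647539 to 136835988, minus strand), a receptor of B ephrins best known in neurons and gut, was near the limit of detection. It had 4, 4 and 2 reads in CD44+CD51- libraries and 12, 17 and 12 reads in CD51+ libraries. That gave 0.0155, 0.0124 and 0.00820 RPKM against 0.0780, 0.0415 and 0.0392 RPKM, which did not overlap. Without the filter its log2 change was 0.06 (adjusted p = 0.152). Without the filter, 24.1% of 21652 genes had CD51+ libraries all above the CD44+CD51- libraries.

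In order of level, CD51+ cells had most Efnb1, which stood clear of every other gene. Efna1, Ephb4, Efna2 and Epha2 followed, each overlapping its neighbour in the order, then Efna4 and Ephb6, which overlapped each other. Efnb2 and Ephb2 stood apart at the bottom. In CD44+CD51- cells Efnb1 again stood clear, Ephb6 was next, and from there down every gene overlapped the one below it. In 7 of the 9 genes CD51+ replicate 3 was the lowest CD51+ library. Mural markers were also lowest there, at a sum of 19.98 RPKM against 48.4 and 42.7 RPKM. So were stromal markers, at 1713 RPKM against 1882 and 2830 RPKM, and the osteolineage, endothelial and osteoclast sums. The megakaryocyte, macrophage, B lineage, erythroid, T and NK, and neutrophil lineage sums were highest there. The part of none of these was tested, and the share of all genes lowest in that library was not counted.

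**Figure D3:**
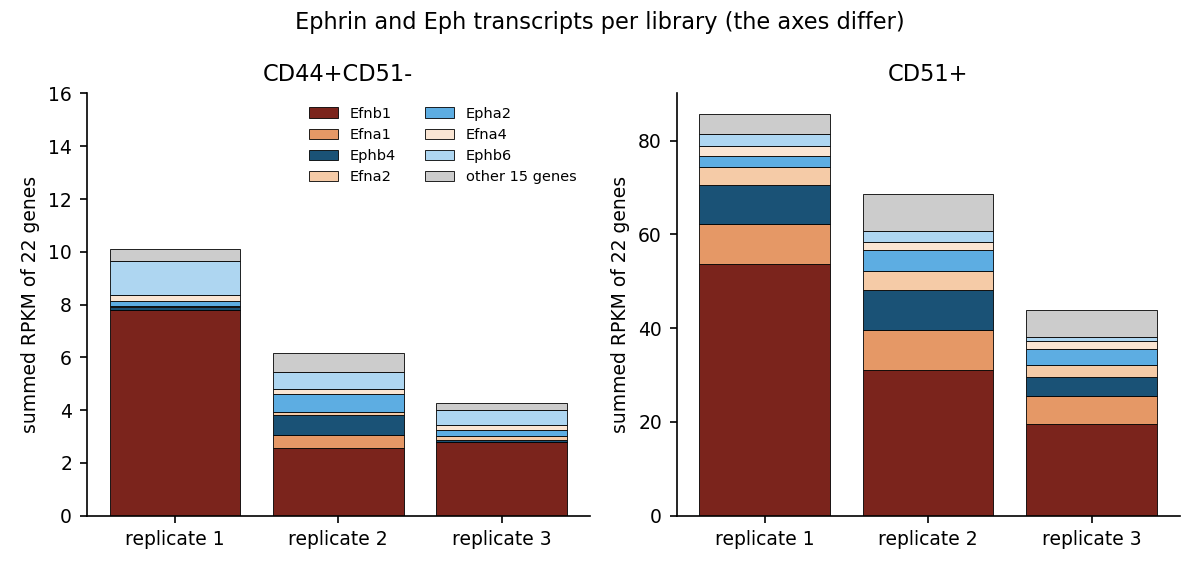
Summed RPKM of 22 ephrin and Eph receptor genes in each library, split by gene, with CD44+CD51- libraries on the left and CD51+ libraries on the right on different axes. Sums run from 4.26 to 10.1 RPKM and from 43.8 to 85.8 RPKM, and Efnb1 is the largest part of every bar.

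All 22 genes summed to 10.1, 6.15 and 4.26 RPKM in CD44+CD51- libraries and to 85.8, 68.7 and 43.8 RPKM in CD51+ libraries. Efnb1 alone held 77.1%, 41.6% and 65.7% of the sum in CD44+CD51- libraries and 62.5%, 45.3% and 44.8% in CD51+ libraries, ranges that overlap. Within the EphB receptors, Ephb4 held 67.1%, 70.7% and 68.2% of the RPKM in CD51+ libraries and 8.28%, 50.7% and 9.31% in CD44+CD51- libraries. Ephb6 held 19.7%, 18.3% and 16.5% against 82.3%, 42.5% and 89.3%. The leading EphB transcript was therefore Ephb4 in all 3 CD51+ libraries and Ephb6 in CD44+CD51- replicates 1 and 3, with Ephb4 ahead in replicate 2. Among the ephrin-A ligands Efna1 was first in every CD51+ library, at 56.0%, 47.4% and 46.0%, while Efna4 was first in CD44+CD51- replicates 1 and 3, at 80.8% and 51.3%. In CD44+CD51- replicate 2 Efna1 was first, at 59.9%, and Efna4 held 20.9%. These shares are descriptions without a test, and those of CD44+CD51- cells rest on few reads.

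The other 13 family members added 0.207 to 0.466 RPKM in CD44+CD51- libraries and 4.10 to 7.75 RPKM in CD51+ libraries, and none passed the filter. Ephb3, an EphB receptor, and Epha3, an EphA receptor, had no reads in any CD44+CD51- library. In CD51+ libraries they were at 1.43, 1.25 and 0.793 RPKM and at 0.956, 1.37 and 0.874 RPKM. With the same floor of 3 reads, Ephb3 was at least 55.0-fold higher and Epha3 at least 66.4-fold higher. Efna5, an ephrin-A ligand, was at 0.0121, 0.0291 and 0.0385 RPKM and at 0.732, 3.39 and 2.44 RPKM, and Efnb3, the third ephrin-B, at 0.0461, 0.111 and 0.0162 RPKM and at 0.567, 1.06 and 0.764 RPKM. Those 4 genes were higher in the fit without the filter (adjusted p = 0.00147 for Ephb3, 0.000954 for Epha3, 0.0152 for Efna5 and 0.00374 for Efnb3), as were Epha1 (0.0236) and Epha4 (0.0295), both under 0.2 RPKM in every library. In that fit 18.5% of 21652 genes were higher and 15.4% were lower. Epha7 and Epha10 did not pass the test, Efna3, Epha6, Epha8 and Ephb1 stayed under 0.25 RPKM without passing the test, and Epha5 was at 0 throughout.

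How much of the CD51+ level remained in CD44+CD51- cells was set against stromal and bone markers. In CD44+CD51- replicate 2, the 6 stromal markers were at 0.254% to 0.917% of their CD51+ means and the 11 osteolineage markers at 0% to 4.28%. In the same library Efna2 was at 3.66%, Efna1 at 6.38%, Efnb1 at 7.35%, Ephb4 at 11.1% and Epha2 at 20.2%. In replicates 1 and 3 Efnb1 was at 22.4% and 8.05% and Ephb6 at 67.7% and 28.8%, where the stromal markers were at no more than 0.491% and 0.283%. Some of the 9 genes lay at or near the markers. In replicate 2 Efna2 lay within the osteolineage range, below Runx2 at 4.28%. Efna1 was at 0% in replicates 1 and 3. In replicate 1 Efna2, at 1.31%, lay within the osteolineage range of 0% to 1.81%, and Ephb4 was at 1.83%. In replicate 3 Ephb4, at 0.808%, lay within the osteolineage range, of which Runx2 was highest at 1.69%. Other marker lists with higher sums in CD51+ cells kept more than the stromal list. In CD44+CD51- replicate 2 mural markers summed to 5.03 RPKM, against 19.98 to 48.4 RPKM in CD51+ libraries. Macrophage markers summed to 42.0 RPKM there, against 119.8 to 185 RPKM. Higher residues than those of stromal and osteolineage markers are therefore not particular to the ephrin and Eph genes.

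**Figure D4:**
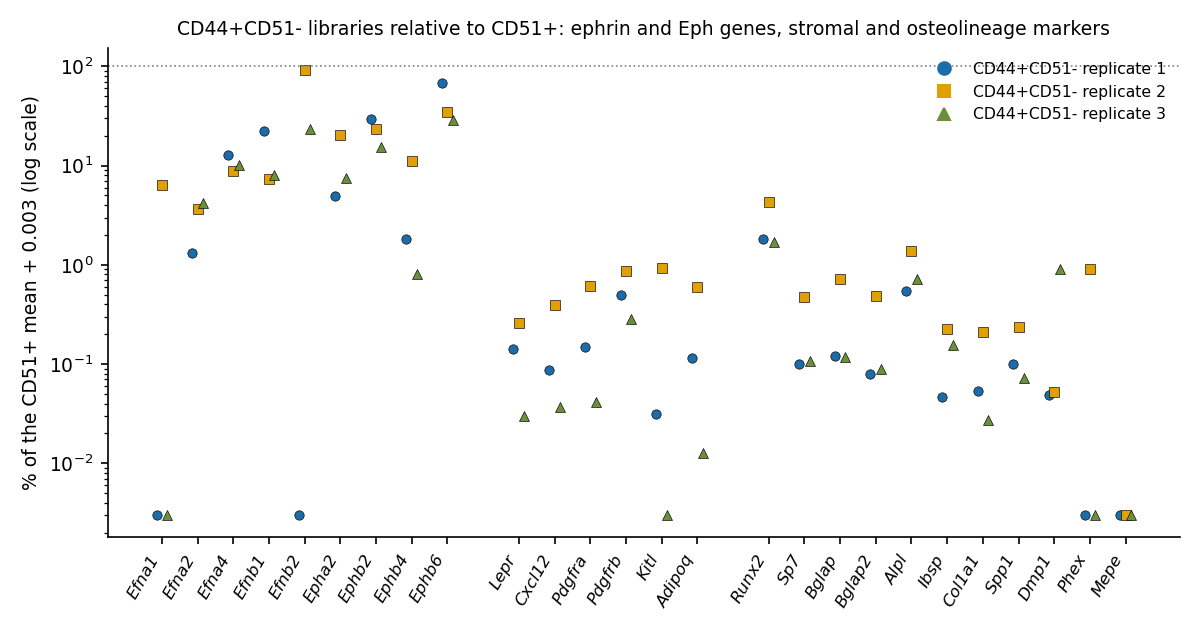
Level in each CD44+CD51- library as a percent of the CD51+ mean, plus 0.003, on a log scale, for the 9 ephrin and Eph genes, 6 stromal markers and 11 osteolineage markers. In replicate 2 (squares) the 6 stromal markers lie at 0.254% to 0.917% and the 11 osteolineage markers at 0% to 4.28%. The 9 ephrin and Eph genes lie at 3.66% to 91.9% there, with Efna2 below Runx2 and with Efnb2, a gene below the filter, highest. Mural and macrophage markers are not shown.

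Genes known to act with Eph receptors and ephrins were called about as often as genes in general. Of 47 in 4 lists, 40 passed the filter, and of these 14 rose and 8 fell in CD51+ cells, 55.0% in all against 53.7% of all genes tested, with a median log2 change of 0.25 against -0.23 over all genes tested. Of the 14, Chn1, Inppl1, Src, Rgs3 and Rhbdl2 were under 1 RPKM in every CD44+CD51- library and passed the filter through the CD51+ libraries alone, a pattern with which 99.5% of genes were called higher. The split was 19 higher and 5 lower under TMM-type scaling, and 16 and 12 with the replicate block. Of 22 adaptors and effectors tested, 6 were higher and 4 lower, where 24.1% and 29.7% of all genes tested were. Chn1, a Rac-inactivating protein that acts downstream of EphA receptors in neurons, rose from 0.0597 ± 0.0430 to 8.98 ± 1.93 RPKM (log2 change 3.22, adjusted p = 1.5e-05). Inppl1, the phosphatase SHIP2 that binds EphA2, and Vav3, a guanine nucleotide exchange factor, rose by 1.33 and 0.86 on the log2 scale, with ratios of mean RPKM of 7.70 and 2.37. Of the adaptors, Grb7 fell from 2.33 ± 0.691 to 0.160 ± 0.149 RPKM, and Anks1 and Nck2 fell by 0.90 and 0.74 on the log2 scale, with ratios of 0.464 and 0.552. The call of Vav3 was lost under quantile normalization (adjusted p = 0.0538) and that of Anks1 under TMM-type scaling (0.0587) and on leaving out replicate 2 (0.0577) or 3 (0.0591) of CD51+ cells. Over their alternatives the adjusted p ran from 0.00221 to 0.0538 for Vav3 and from 0.001002 to 0.0591 for Anks1.

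Of 8 kinases and phosphatases tested, 4 were higher and 1 was lower, 5 of 8 against the 53.7% of all genes tested. The Src family kinase genes Fyn, Src and Lyn, whose products act below activated Eph receptors, rose from 6.98 ± 0.882 to 19.97 ± 2.14 RPKM, from 0.515 ± 0.275 to 2.38 ± 0.370 RPKM and from 13.8 ± 2.41 to 28.8 ± 4.01 RPKM. Acp1, a phosphatase recruited to Eph receptors, fell from 53.2 ± 6.84 to 29.1 ± 5.96 RPKM (adjusted p = 0.00857). Of 5 partners of the ephrin-B tail tested, 2 were higher and 1 was lower, 3 of 5 against the same share. Rgs3, which ephrin-B binds to dampen G protein signals, rose from 0.118 ± 0.0654 to 4.67 ± 0.538 RPKM (log2 change 2.34, adjusted p = 2.3e-05), Stat3, a transcription factor, rose by 1.67 on the log2 scale (ratio 3.57), and Pick1, a PDZ protein, fell by 0.67 on the log2 scale (ratio 0.462).

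Of 5 proteases that cut ephrins or Eph receptors, 2 were higher and 2 lower, 4 of 5 against 53.7% of all genes tested. Rhbdl2, a rhomboid protease, rose from 0.0437 ± 0.0379 to 3.14 ± 0.980 RPKM and Mmp14, a membrane-bound matrix protease, from 26.1 ± 4.18 to 56.4 ± 12.3 RPKM. Psen2, a catalytic subunit of γ-secretase, fell from 28.8 ± 0.308 to 12.9 ± 0.780 RPKM (log2 change -1.10, adjusted p = 0.000480). Adam10, the sheddase of ephrin-A complexes, was at 65.5, 63.8 and 62.1 RPKM and at 42.3, 48.9 and 50.2 RPKM, groups that did not overlap. Its fall by 0.43 on the log2 scale (adjusted p = 0.0281) lost its call under TMM-type scaling (0.136) and quantile normalization (0.0848) and on leaving out any 1 CD44+CD51- library (0.0615, 0.0852 and 0.0783 for replicates 1 to 3) or replicate 2 of CD51+ cells (0.0676). Its alternatives ran from 0.0160 to 0.136.

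**Figure D5:**
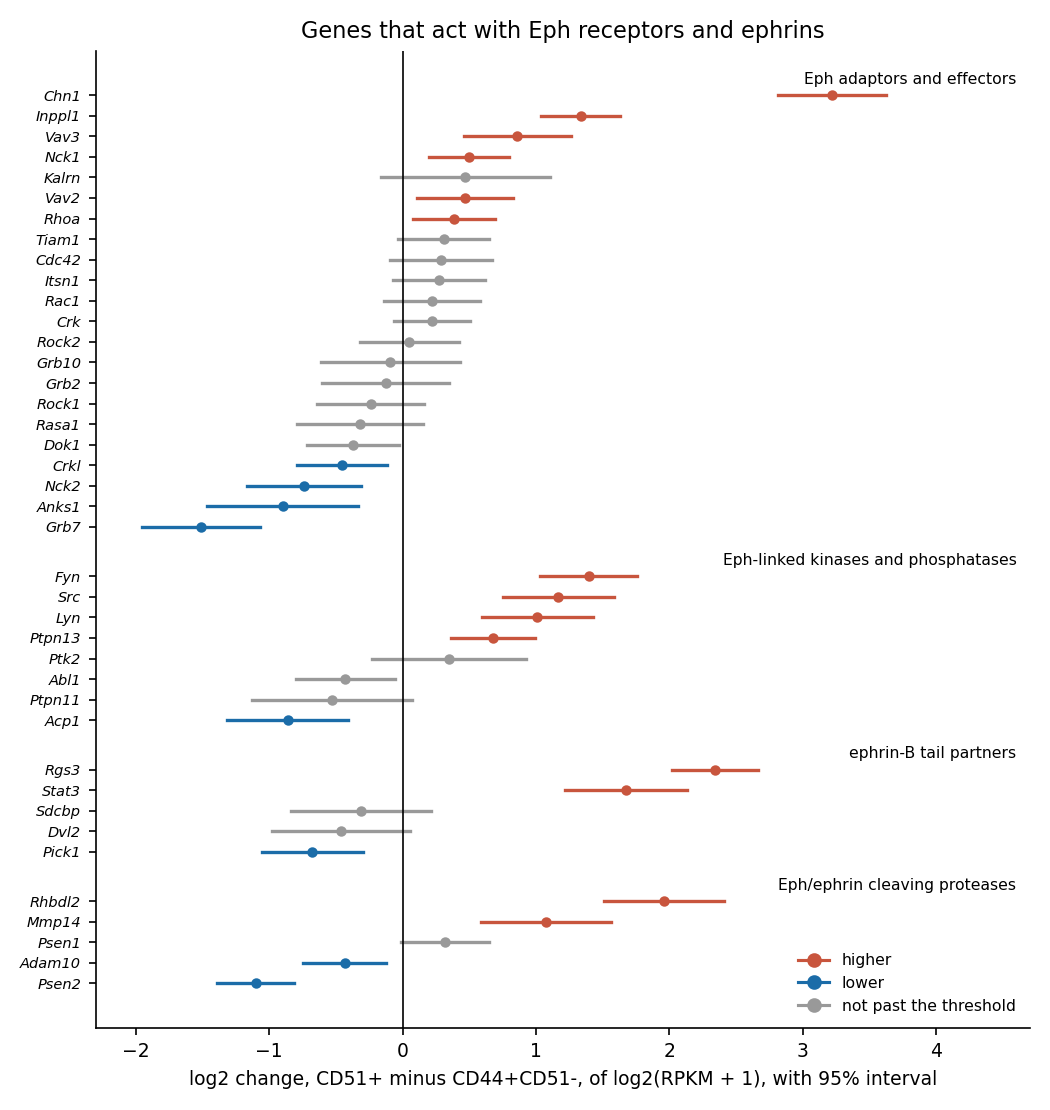
Log2 change of log2(RPKM + 1), CD51+ minus CD44+CD51-, with its 95% interval from limma, of 40 tested genes in 4 lists of Eph and ephrin signalling. Chn1 and Rgs3 have the largest rises of the 40 at 3.22 and 2.34, and Grb7 has the largest fall at -1.51.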

How the data were processed

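Bulk RNA was sequenced from 3 CD44+CD51- and 3 CD51+ libraries, made with a transposase kit (Nextera XT) per the labels' protocols. The authors deposited RPKM per gene and library, per the file header. Per the submitters' processing notes, the build was GRCm38 and edgeR 3.16.5 was used. The aligner, counter, annotation and strand setting are not given in the sources used here.

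Genes with RPKM of at least 1 in at least 3 libraries (11741) were fitted as log2(RPKM + 1) with limma 3.58.1 in R 4.3.3, with a trend in the variance, two-sided, and Benjamini-Hochberg adjustment over all genes tested. The fit was tried on simulated data with independent libraries and the same dispersion for every gene. That trial does not cover the shared deviations of libraries of the same number described below. Gene lengths and coordinates are from GENCODE M21, of build GRCm38. With these lengths, 89.6% of 32442 values of up to 20 reads came within 0.05 of a whole read, where 10% would by chance, which gave the estimated library sizes and the reads quoted. Those reads summed to 18193043 to 49919965 per library, above the estimated sizes, for an unknown reason. Floors of 3 reads cover counting error only.

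Libraries of the same number deviated together: their deviations from the group means correlated across genes at 0.619, 0.286 and 0.516 for numbers 1 to 3. The numbers were used to pair libraries only for the same-number ratios and in the replicate block. The main fit had group alone, so its adjusted p leaves out any pairing. Over all genes the block gave 8119 calls, against 6309 in the main fit. The basis for pairing is uneven: CD44+CD51- replicate 3 with CD51+ replicate 2 was at 0.324, above the pair numbered 2. CD44+CD51- replicate 2 with CD51+ replicate 3 was at 0.198, and the other 4 unlike pairs were below 0. Deviations from a group mean cancel out within the group, so some pairs must fall below 0 when others lie above it. Alternatives were other pseudocounts, filters, scalings, a replicate block, no variance trend, limma's voom on recovered reads, and each library left out. The genes named were the 9 described, the rest of the family, and from each signalling list up to 3 called genes of largest rise and of largest fall. The members and lists were chosen with earlier results of these data known.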

Additional observations from a re-analysis of the deposited data

How the results depend on the processing

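Over 15 alternatives each, Efna1, Efna2, Efnb1, Epha2 and Ephb4 kept their direction and their call, with a highest adjusted p of 0.0133 (Efnb1). Leaving out 1 library each gave 6 to 7 genes higher and 0 lower of the 9, and 7 were higher with the replicate block. Under quantile normalization 5 were higher: Efna4 fell to 0.45 (adjusted p = 0.0633) and Ephb6 to -0.038. Ephb6 passed the test with the replicate block (0.64, adjusted p = 0.0117) and ran from 0.49 to 0.89 with 1 library left out. Below the filter, Ephb2 was -0.0070 under quantile normalization and 1.88 by voom on recovered reads (adjusted p = 0.0292). Signalling genes were lower in 5 cases under TMM-type scaling, against 8; with 1 library left out, 11 to 15 were higher and 6 to 8 lower. Over all genes 2825 were higher and 3484 lower, with 2386 to 2803 and 2551 to 3177 with 1 library left out. Of these calls 44.8% were higher, against 56.3% under TMM-type scaling, 34.6% under quantile normalization and 54.6% without the filter. The median log2 change of all genes, -0.23, was -0.07, -0.36 and -0.01 in turn. Cd44, not called, was 0.048 and 0.0090 under TMM-type scaling and quantile normalization. Pecam1 was -0.73 under quantile normalization (adjusted p = 0.0212), and -0.39 to 0.10 with 1 library left out, the latter without CD44+CD51- replicate 2. The cause of these moves was not tested. The replicate block changed no other call among the 9 genes and the named signalling and sorting genes. It was fitted to all genes tested, but the calls of other markers under it were not examined. Depth limits the CD44+CD51- values of all 9 genes but Efnb1, which rest on under 100 reads.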

Other observations

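A few family members had the opposite order. Epha7, an EphA receptor, was at 0.208, 0.206 and 0.131 RPKM in CD44+CD51- libraries (42, 52 and 25 reads) and at 0.0829, 0.128 and 0.0834 RPKM in CD51+ libraries (10, 41 and 20 reads), groups that did not overlap but did not pass the test without the filter (adjusted p = 0.111). Epha10, which encodes a receptor without kinase activity, had 7, 2 and 3 reads in CD44+CD51- libraries and none in CD51+ libraries (adjusted p = 0.288).

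The tested genes whose pattern over the 6 libraries was most like that of Efnb1, by Pearson's r of log2(RPKM + 1), were Slc39a13, a zinc transporter needed in connective tissue, at 0.999, Tspan3, a tetraspanin, at 0.998, and Gpt2, an alanine aminotransferase, at 0.998. All 3 were highest in replicate 1 of both groups, and 333 genes were above 0.95. For Ephb4 they were Thap3, Ap3m2 and Smpdl3b at 0.998 each, among 1541 genes above 0.95. For Efna1 they were Kcnip3 (1.000), Trf (0.999) and Slc7a6 (0.999), for Efna2 Tcaf1, Mcfd2 and Slc27a1, for Efna4 Arhgef19, Serpina3c and Cdh15, and for Epha2 Galk2, Cdkn1c and Sowahc, all at 0.999 or above as rounded. Ephb6 had the fewest like genes, with Pdp1 and Zdhhc8 at 0.979, Enpp1 at 0.976 and 37 genes above 0.95. With 6 libraries in 2 groups, any gene that parts the groups gives a high r.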
